A study of Vitis vinifera with 45 samples.

Results

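The berry skins of graft-free Crimson Seedless (CS) vines were compared between the stages DAF75 and DAF45, named for days after flowering. The members were the 3 CS libraries taken at DAF75 and the 3 CS libraries taken at DAF45, 6 of the 45 libraries in the series, and they were chosen by their column names in the deposited tables. CS is a red seedless table grape (Vitis vinifera), and graft-free vines grow on their own roots. Both groups were peel of fruit of this one cultivar, and the labels give no difference between them but the stage. The remaining libraries were CS skins of a later stage, DAF105, and skins of all 3 stages from a self-graft (CS/CS) and from 3 heterografts, in which 101-14, 110R or SO4 served as rootstock. In the sample titles CS is Crimson Seedless and CS/CS is Crimson, and the study's own key to the library names gives CS as the graft-free one.

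Grape berries first grow as hard, green, acid fruit. At veraison the berry softens, loses chlorophyll, accumulates sugar and, in red cultivars, fills its skin with anthocyanins. Anthocyanins are made from phenylalanine through the phenylpropanoid enzymes PAL and 4CL, then the flavonoid enzymes CHS and F3H, and later LDOX. The skin also carries the cuticle, a layer of wax and cutin built from very long-chain and oxygenated fatty acids. The comparison of DAF75 with DAF45 asks which transcripts had changed in CS skins over an interval that, in a ripening berry, can take in the onset of colour.

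In CS skins, 944 transcripts were higher and 1214 were lower at DAF75 than at DAF45, of 17636 tested. These were 5.35% and 6.88% of the transcripts tested, 12.2% in either direction. Calls required a log2 fold change beyond 1 in either direction together with an adjusted p no greater than 0.05 in edgeR's quasi-likelihood test. The changes were mostly small. The median log2 fold change was 1.39 among the transcripts called higher and −1.48 among those called lower. Only 165 called transcripts rose by over 2 on the log2 scale, against 329 that fell by as much, and 14 against 36 passed an absolute change of 4. A further 4864 transcripts had an adjusted p of 0.05 or less with a change of no more than 1 on the log2 scale. The transcripts called lower were also the more abundant ones. Their median level over the 6 libraries was 15.8 TPM (a level scaled for transcript length and library size), against 5.24 TPM for those called higher and 14.8 TPM for all transcripts tested. A mean of at least 100 TPM at the higher stage was reached by 234 of the transcripts called lower and by 60 of those called higher. Their median relative length was 1.16 times that of all tested transcripts for the calls higher and 0.875 times for the calls lower.

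**Figure D1:**
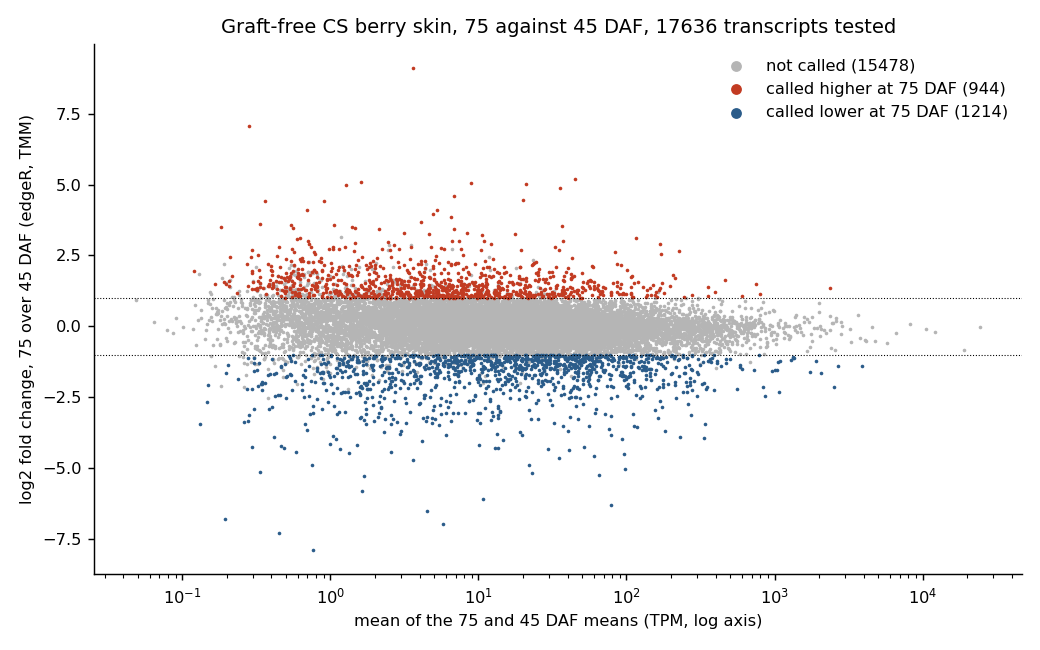
Log2 fold change of DAF75 over DAF45 in graft-free CS (vertical axis) against the mean level in TPM (horizontal log axis) for each of the 17636 transcripts tested, with dotted lines at a log2 fold change of 1 and −1. Past a change of 4 in size lie 36 of the 1214 transcripts called lower and 14 of the 944 called higher.

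The 6 libraries held from 18731802 to 19089084 counts at DAF75 and from 17594637 to 19418092 at DAF45. Within a stage, log2 CPM correlated across transcripts at 0.988 to 0.992 between libraries at DAF75 and at 0.977 to 0.991 at DAF45, lowest between replicates 2 and 3 at DAF45. No library pair agreed within counting noise, so all 6 were kept as separate replicates. The study took 3 biological replicates per stage, and p-values measure the spread among these. The 10 most abundant transcripts took 9.20% to 10.3% of TPM at DAF75 and 9.48% to 11.4% at DAF45. TPM and the tested fold changes were not on quite the same scale. Over all transcripts tested, TPM was higher at DAF75 by a median of 0.18 on the log2 scale, 1.13-fold, whereas the median edgeR log2 fold change was −0.01. The TPM of the 3 libraries at DAF75 all lay above those at DAF45 for 38.3% of the transcripts tested and all below for 17.1%, 55.4% in either direction. With counts scaled by TMM, the normalization of the test, these shares were 26.6% and 27.8%, 54.4% together. TPM values that do not overlap between stages were therefore common in either direction, and a transcript is said to have risen or fallen only where it was called.

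Nothing in the sources used here gives markers of skin cell types, so the label could not be checked. The levels of 2 listed gene groups are given instead, with no tissue other than skin to compare. Transcripts of fatty acid elongation, the cuticle-forming activity of epidermis, were present at both stages, with a summed level of 133 to 144 TPM at DAF75 and 124 to 157 TPM at DAF45. Transcripts of light harvesting, which mark green tissue, summed to 980 to 1337 TPM at DAF75 and 1508 to 2021 TPM at DAF45. Markers of flesh, seed and vascular tissue were not measured. In whole skins, fewer cells of a type and less RNA per cell cannot be told apart.

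The identifiers in the deposited tables are not paired with names, and 0 of the 29958 were found among 29591 annotated grape genes. Gene names were therefore taken, unchecked, from the study's list of 19 genes assayed by RT-qPCR, and functions from the gene ontology (GO) terms that the study attached to identifiers. By a rule of size, the 2 largest called changes in each direction are given for transcripts with at least 10 TPM at the higher stage and no overlap of libraries, out of 407 higher and 784 lower. None of these 4 carries a name or a term.

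VIT_05s0124g00660, on chromosome 5, had 97.5, 96.2 and 68.7 TPM at DAF75, against 2.06, 2.92 and 1.05 TPM at DAF45. These are 258 counts over the 3 libraries at DAF75 and 6 at DAF45, a depth-scaled ratio of 42.2 with a 95% exact counting interval from 19.1 to 116, and the interval covers counting error only. Its fitted log2 fold change was 5.19. The transcript was back at 0.822, 3.50 and 0 TPM in CS at DAF105, so its high level stood at DAF75 alone among the 3 CS stages. VIT_05s0094g01200, on the same chromosome, had 13.0, 23.5 and 15.7 TPM at DAF75, against 0.182, 0.629 and 0.692 TPM at DAF45, or 275 against 7 counts. The ratio was 38.6 (interval 18.5 to 96.8), and the fitted log2 fold change was 5.06. At DAF105 it stood at 10.5, 15.5 and 11.8 TPM, near its level at DAF75.

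VIT_01s0026g01380, on chromosome 1, had 0.072, 0.207 and 0 TPM at DAF75, against 11.4, 8.30 and 14.9 TPM at DAF45. Its counts were 4 at DAF75 and 497 at DAF45. The level at DAF45 was 127 times that at DAF75, with a counting interval from 49.1 to 466. At DAF105 it was listed at 0, 0 and 0.0605 TPM. VIT_02s0025g00280, on chromosome 2, was far more abundant, with 2.27, 1.69 and 2.79 TPM at DAF75, against 178, 102 and 187 TPM at DAF45. Its log2 fold change was −6.29. Its level at DAF105, 1.61 to 2.05 TPM, was close to that at DAF75. The other 3 transcripts passed the count filter only through the stage at which they were high, and all 4 were chosen by the size of this change, so the values are a description and no test is given.

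Of the 19 named genes, 18 were tested in CS, and 0 were called higher and 2 lower, beside 5.35% and 6.88% of all transcripts. At an adjusted p of 0.05 or less without the fold threshold, 7 of the 18 differed, against 7022 of all 17636 transcripts. Leaving out 1 library left 0 higher and gave 1 to 5 lower, 5 without replicate 3 at DAF45, 4 without replicate 1 at DAF45 and 1 without each of the other 4 in turn. DESeq2 called 0 higher and 2 lower, and 7 of the 18 had an unadjusted p of 0.05 or less in edgeR. The median log2 fold change of the 18 was −0.18, against −0.01 over all transcripts tested. The list was picked by the study with these libraries among others, so its counts are no independent evidence of a direction.

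The list holds 4 genes named for the first steps of the phenylpropanoid pathway, and other transcripts of these families were not examined. PAL1, named for phenylalanine ammonia-lyase, which opens the pathway, was barely present, with 0, 3 and 3 counts at DAF75 and 0, 3 and 0 counts at DAF45, and was not tested. The 4-coumarate-CoA ligase family, which activates coumaric acid, held the 2 calls. 4CL1 had 7.17, 2.85 and 3.64 TPM at DAF75, against 9.58, 10.6 and 8.92 TPM at DAF45, with no overlap. It fell by 1.3 on the log2 scale (SE 0.32, adjusted p = 0.0165 in edgeR). 4CLL5 had 5.54, 7.80 and 12.8 TPM at DAF75, against 14.0, 27.8 and 15.8 TPM at DAF45, and fell by 1.35 (SE 0.39, adjusted p = 0.0309 in edgeR). Both calls were lost without single libraries. Without replicate 3 at DAF75 the adjusted p of 4CL1 was 0.0633 in edgeR. For 4CLL5 it was 0.0532 without replicate 2 at DAF45, 0.0816 without replicate 1 at DAF75 and 0.0962 without replicate 2 at DAF75. 4CLL2, the most abundant of the 3, had 128, 137 and 147 TPM at DAF75, against 195, 286 and 190 TPM at DAF45. Its log2 fold change of −0.91 (adjusted p = 0.0112 in edgeR) did not reach the fold threshold.

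None of the genes on the list named for flavonoid enzymes was called. CHS (VIT_16s0100g00950) is named for chalcone synthase, the first committed enzyme of the flavonoid pathway, and whether it encodes that enzyme was not tested. It had 2.19, 1.91 and 2.14 TPM at DAF75, against 2.20, 4.03 and 1.80 TPM at DAF45, with the stages overlapping. F3H, flavanone 3-hydroxylase, did not overlap, at 256, 246 and 219 TPM at DAF75, against 155, 130 and 170 TPM at DAF45. Its log2 fold change was 0.48 ± 0.10 (adjusted p = 0.0082 in edgeR), under the fold threshold. LDOX, leucoanthocyanidin dioxygenase, had 1.81, 2.48 and 4.05 TPM at DAF75, against 4.39, 0.849 and 2.16 TPM at DAF45. Its libraries overlapped throughout, and its fitted change of about 0 took either sign with the setting and the libraries used. OMTF3, an O-methyltransferase by its name, had 8.47, 7.27 and 7.10 TPM at DAF75, against 4.63, 4.99 and 5.38 TPM at DAF45, with a log2 fold change of 0.41 (adjusted p = 0.0409 in edgeR). At DAF105, LDOX stood at 70.3, 108 and 106 TPM and F3H at 739, 358 and 412 TPM in CS. CHS, at 0.303 to 0.599 TPM, was lower at DAF105 than in any library of the earlier stages.

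Replicates of 1 stage lay far apart for several genes that are very abundant in CS at DAF105. The gene the study calls CHI, which its GO terms place under cell wall organization, had 689, 1321 and 1359 TPM at DAF75, against 247, 534 and 858 TPM at DAF45. Replicate 1 at DAF75 lay below replicate 3 at DAF45, and the log2 fold change of 0.86 ± 0.45 did not pass (adjusted p = 0.166 in edgeR). The ripening-related protein-like gene had 34.1, 222 and 112 TPM at DAF75, against 25.9, 25.9 and 144 TPM at DAF45 (log2 fold change 0.77 ± 0.83, adjusted p = 0.497 in edgeR). VIT_05s0094g00340, whose identifier is next to that of CHI and which also carries the cell wall term, had 98.8, 379 and 230 TPM at DAF75, against 24.5, 28.3 and 225 TPM at DAF45. In all 3, replicate 3 was the highest library at DAF45 and replicate 1 the lowest at DAF75. Without replicate 3 at DAF45, VIT_05s0094g00340 was called higher, with a log2 fold change of 2.95. Whether neighbouring copies share reads was not tested. At DAF105 these genes reached 10567 to 15246, 6776 to 12346 and 11894 to 21520 TPM, all far above every library at DAF75.

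EXPA11, named for an expansin, a protein that loosens cell walls, and BHLH77, a basic helix-loop-helix regulator by name, split their replicates in the same way. EXPA11 had 228, 483 and 346 TPM at DAF75, against 280, 193 and 530 TPM at DAF45. BHLH77 had 175, 280 and 219 TPM at DAF75, against 183, 109 and 303 TPM at DAF45. Both overlapped fully, with log2 fold changes of −0.09 and 0.01, and both signs turned when single libraries were left out. ACBP6, an acyl-CoA-binding protein by name, was tighter, at 488, 442 and 476 TPM at DAF75, against 723, 984 and 714 TPM at DAF45. Its log2 fold change of −0.97 ± 0.16 (adjusted p = 0.00367 in edgeR) stopped just short of the fold threshold, and at DAF105 it stood at 2502 to 2947 TPM, well above both earlier stages.

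Several genes that are lower in CS at DAF105 than at both earlier stages had overlapping levels at DAF75 and DAF45. UBC28, a ubiquitin-conjugating enzyme by name, had 2256, 2212 and 2215 TPM at DAF75, against 2142, 2266 and 1941 TPM at DAF45, and 141 to 186 TPM at DAF105. EXL1 had 70.1, 32.0 and 42.8 TPM at DAF75, against 44.0, 65.2 and 50.8 TPM at DAF45, and 0.548 to 0.983 TPM at DAF105. XTH7, a xyloglucan endotransglucosylase by name, had 1291, 578 and 935 TPM at DAF75, against 1031, 1182 and 700 TPM at DAF45, and 11.3 to 16.4 TPM at DAF105. XTH7 spread widely within a stage, and the sign of its change of −0.25 turned without replicate 2 at DAF75. PUB23, an E3 ubiquitin ligase, overlapped as well, with 211, 150 and 219 TPM at DAF75, against 265, 335 and 136 TPM at DAF45. Of the WRKY transcription factors, regulators of stress and defence genes, WRKY46 overlapped at 184, 230 and 231 TPM, against 149, 305 and 146 TPM at DAF45. WRKY40 did not overlap, at 304, 334 and 346 TPM at DAF75, against 464, 741 and 391 TPM at DAF45 (log2 fold change −0.91, adjusted p = 0.0300 in edgeR).

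**Figure D2:**
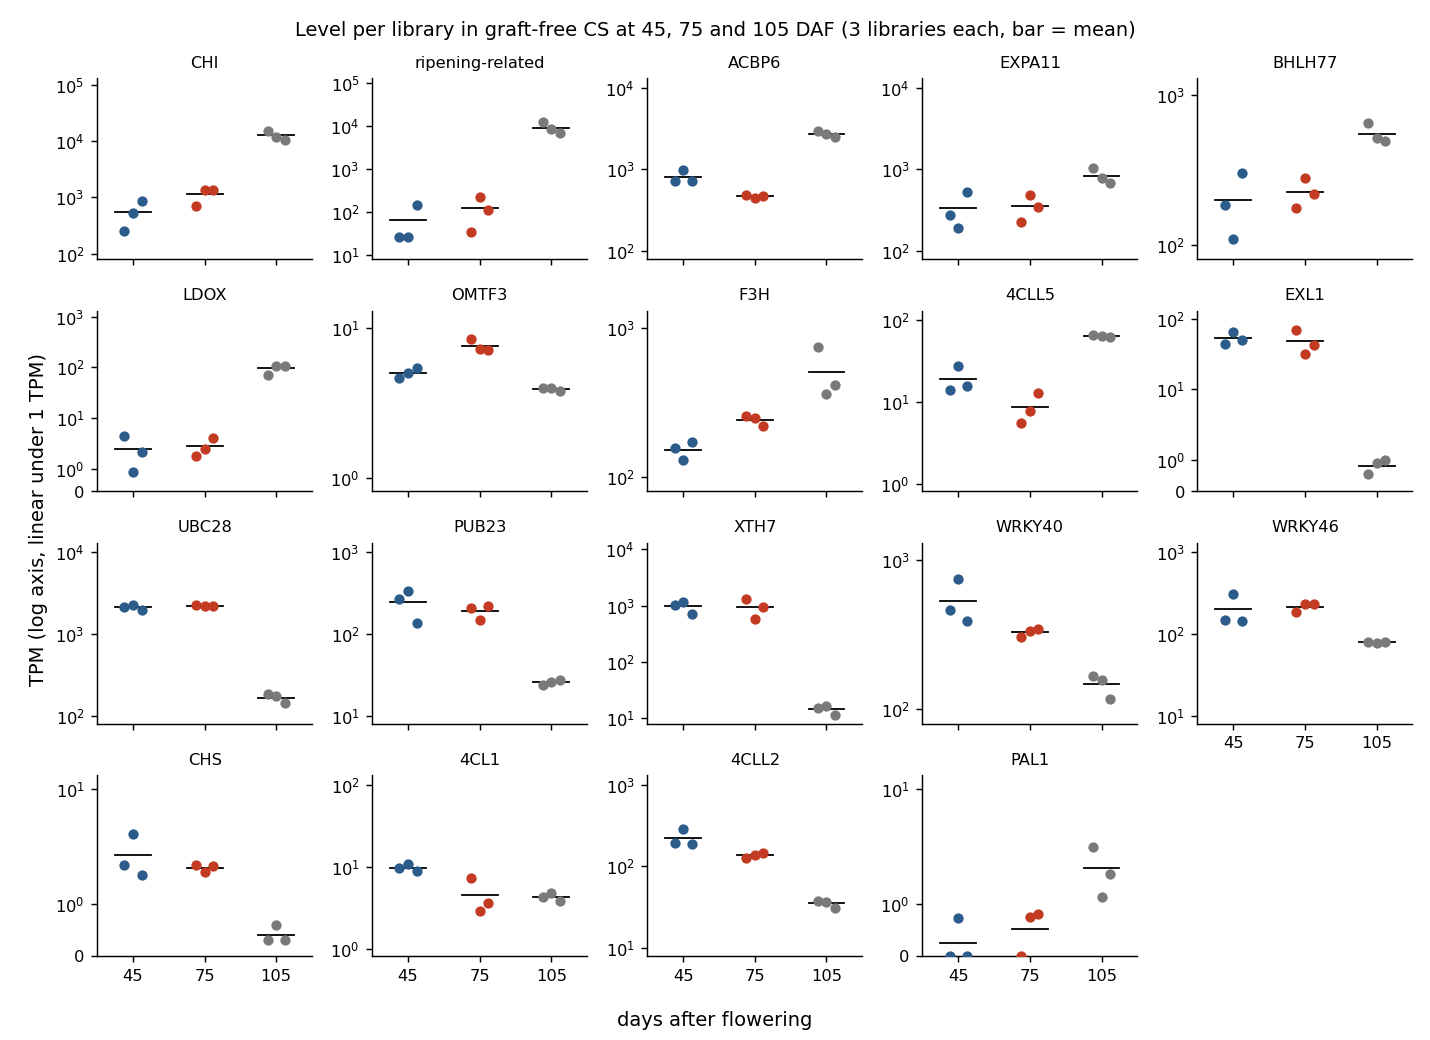
Level in TPM (vertical log axis, linear under 1 TPM) of the 19 named genes in each graft-free CS library at DAF45, DAF75 and DAF105 (horizontal axis), with points for the 3 libraries of a stage and a bar for their mean. The DAF45 and DAF75 points overlap for 11 of the 18 genes tested, and over all transcripts tested TPM did not overlap for 55.4%. For UBC28, XTH7 and CHI the DAF105 points lie apart from both.

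Gene groups came from the study's GO term lists. The lists come from a contrast of heterografts with CS that used the CS libraries of DAF75, so their counts are not independent evidence of a direction. Phosphoenolpyruvate carboxykinase, ferric iron binding, glycosyl transferases and cell wall organization were listed as higher in heterografts. That choice favours a fall in CS at DAF75. The other lists below were given as lower in heterografts, which favours a rise in CS at DAF75. Over the 144 transcripts of the terms whose full lists were given, 139 were tested. Of these, 9 were higher and 17 lower at DAF75, beside 5.35% and 6.88% of all transcripts tested. The same shares stand beside the count of every list below. The median log2 fold change of the 139 was −0.29, against −0.01 over all transcripts. Over all 447 transcripts with a term, 428 were tested, of which 35 were higher and 44 lower, with a median of −0.14.

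Of the 9 light-harvesting transcripts 3 fell in CS at DAF75 and none rose, beside 6.88% and 5.35% of all transcripts tested. The term is light harvesting in photosystem I, the work of antenna proteins that hold chlorophyll. The same transcripts are also listed under photosystem II. All 9 on the list were tested in edgeR, and all 9 had a negative log2 fold change, from −1.67 to −0.28 with a median of −0.85. Leaving out 1 library gave 2 to 4 lower. VIT_17s0000g06350 had 117, 94.6 and 105.4 TPM at DAF75, against 341, 236 and 309 TPM at DAF45, a log2 fold change of −1.67 ± 0.13 (adjusted p = 0.000261 in edgeR). VIT_10s0003g02890 had 198, 136 and 133 TPM at DAF75, against 452, 322 and 407 TPM at DAF45 (−1.52 ± 0.18, adjusted p = 0.000942 in edgeR). Neither overlapped, and each DAF75 library held less than the lowest DAF45 library. VIT_00s0181g00180 had 17.0, 13.5 and 12.8 TPM at DAF75, against 32.9, 21.6 and 28.5 TPM at DAF45, and its call was lost without replicate 1 at DAF45, where the log2 fold change was −0.98. The most abundant member, VIT_15s0024g00040, had 495, 384 and 440 TPM at DAF75, against 582, 525 and 544 TPM at DAF45, and its change of −0.52 was under the fold threshold. The members as a whole were present at both stages and summed to 54.5 to 85.7 TPM at DAF105.

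The lists for the photosystems hold 13 and 14 transcripts, and others were not examined. The photosystem I list had 3 of 13 lower, 0 higher and a median of −0.33, and the photosystem II list 3 of 14 lower, 0 higher and a median of −0.42. Over all transcripts tested, 6.88% were lower and 5.35% higher. Both lists hold all 9 light-harvesting transcripts above, among them the 3 lower members. The rest of the photosystem I list had log2 fold changes of 0.18, 0.12, 0.31 and −0.08. The rest of the photosystem II list lay between −0.90 and 0.06, with none called. VIT_05s0020g03180, the most abundant of photosystem I, had 1406, 1231 and 1241 TPM at DAF75, against 1063, 1031 and 1038 TPM at DAF45. Its TPM did not overlap between the stages, yet its tested log2 fold change was 0.12 (adjusted p = 0.325 in edgeR). VIT_07s0141g00570, the most abundant of photosystem II, overlapped at 583, 493 and 516 TPM, against 559, 537 and 505 TPM at DAF45. Plastoglobules are the lipid droplets of plastids, and 2 of 8 transcripts of that list fell, with a median of −0.68. All 8 are also on the light-harvesting list, so this count repeats a part of that list.

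Lipases, which release fatty acids from lipids, included 5 that fell and 1 that rose of 14 tested members, beside 6.88% and 5.35% of all transcripts, with a median of −0.85. VIT_09s0002g00570 had 48.8, 38.5 and 50.9 TPM at DAF75, against 688, 544 and 641 TPM at DAF45. It fell by 3.95 on the log2 scale (SE 0.14, adjusted p = 7.66e-05 in edgeR), with no other member of the 30 lists falling further. VIT_06s0004g06660, which also carries the phospholipase term, had 34.6, 44.2 and 44.8 TPM at DAF75, against 223, 190 and 208 TPM at DAF45, and fell by 2.52 (SE 0.13). VIT_12s0028g02000, another phospholipase, had 38, 36.2 and 37.7 TPM at DAF75, against 88.1, 76.2 and 83.1 TPM at DAF45, with little spread within a stage. It fell by 1.34 (SE 0.07). The member that rose, VIT_18s0001g00770, was scarce, at 2.06, 2.79 and 3.12 TPM at DAF75, against 1, 0.839 and 1.01 TPM at DAF45. VIT_09s0002g00540 fell at a similar level, with 1.34 to 1.89 TPM at DAF75, against 3.06 to 3.59 TPM at DAF45. Not called were VIT_00s0317g00110, the most abundant over the 6 libraries, and VIT_07s0141g00360. VIT_00s0317g00110 had 365, 235 and 302 TPM at DAF75, against 421, 479 and 298 TPM at DAF45, with the stages overlapping. VIT_07s0141g00360, a phospholipase, had 211, 234 and 219 TPM at DAF75, against 95.6, 171 and 80.7 TPM at DAF45, and its log2 fold change of 0.72 (adjusted p = 0.0952 in edgeR) was 1.17 and called without replicate 2 at DAF45. The narrower phospholipase list had 2 of 10 lower and 1 higher, with a median of −0.73.

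Other lipid groups showed few or no calls. Oxylipins are oxygenated fatty acids that include the wound hormone jasmonic acid, and 0 of 12 transcripts of their metabolism and 0 of 3 of jasmonic acid biosynthesis were called in either direction, with medians of −0.35 and −0.42. The jasmonic acid member VIT_17s0000g01790 came closest, at 32.2, 28.3 and 25.3 TPM at DAF75, against 13.6, 12.7 and 11.8 TPM at DAF45. Its log2 fold change of 0.97 ± 0.11 (adjusted p = 0.00093 in edgeR) lay just under the threshold, and it was called when replicate 1 or 2 at DAF45 or replicate 3 at DAF75 was left out. VIT_09s0002g01080, the most abundant oxylipin transcript, had 269, 277 and 283 TPM at DAF75, against 145, 479 and 108 TPM at DAF45. Its DAF45 libraries lay on both sides of the DAF75 libraries, with replicate 2 at DAF45 the highest of the 6.

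Cuticle-related lists held no call. Fatty acid elongase activity had 0 of 3 called in either direction with a median of −0.12, and very long-chain fatty acid metabolism 0 of 4 with a median of 0.07. In these 4 lists DESeq2 called 0 as well, and an unadjusted p of 0.05 or less, with any size of change, was reached by 4 of the oxylipin, 1 of the jasmonic acid, 1 of the elongase and 1 of the very long-chain fatty acid transcripts in edgeR. VIT_04s0023g01140, the most abundant elongase, had 78.0, 62.2 and 64.3 TPM at DAF75, against 104, 66.4 and 93.4 TPM at DAF45, and VIT_18s0001g11900 had 57.7, 62.3 and 65.7 TPM at DAF75, against 46.5, 62.5 and 24.1 TPM at DAF45. Both overlapped. In fatty acid biosynthesis 2 of 17 fell and 0 rose, both at low levels. VIT_07s0005g01790 had 0.188 to 0.636 TPM at DAF75, against 0.993 to 1.62 TPM at DAF45, and VIT_07s0141g00060 had 0.553 to 1.2 TPM, against 2.46 to 3.75 TPM at DAF45. The list of lanosterol synthase activity, a step that closes the ring of sterols and triterpenes, had 1 of 5 lower. That member, VIT_09s0054g01220, had 35.4, 16.8 and 25.6 TPM at DAF75, against 71.9, 69.7 and 61.9 TPM at DAF45 (log2 fold change −1.59 ± 0.25, adjusted p = 0.00292 in edgeR).

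In auxin signaling several members rose and none fell, and the choice of this list as lower in heterografts favours a rise. Auxin is a growth hormone that delays berry ripening. Of 13 tested members, 3 rose, beside 5.35% of all transcripts, with a list median of 0.29, and leaving out 1 library gave 3 higher and 0 to 1 lower. VIT_15s0046g00290 had 34.7, 36.7 and 31.2 TPM at DAF75, against 3.93, 6.03 and 3.76 TPM at DAF45, a log2 fold change of 2.69 ± 0.22 (adjusted p = 0.000266 in edgeR). VIT_10s0003g00420 had 107, 86.0 and 94.7 TPM at DAF75, against 32.0, 43.2 and 30.5 TPM at DAF45 (1.24 ± 0.18). VIT_05s0062g01120 had 227, 183 and 209 TPM at DAF75, against 75.5, 92.6 and 84.6 TPM at DAF45 (1.10 ± 0.13). None of the 3 overlapped, and each was called in all 6 leave-one-out fits. The most abundant member, VIT_07s0141g00270, overlapped, with 176, 105.3 and 147 TPM at DAF75, against 153, 294 and 80.2 TPM at DAF45. At DAF105 the 3 that rose stood at 1.88 to 2.79, 6.88 to 7.44 and 27.6 to 37.1 TPM, below every library of both earlier stages.

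Transcripts of wounding and defence showed 1 call between them and wide spread at DAF45. Response to wounding had 1 of 9 higher and 0 lower, and regulation of defense response 1 of 12 higher and 0 lower. The call in both was VIT_18s0122g00990, with 2.06, 2.33 and 2.22 TPM at DAF75, against 0.771, 0.719 and 1.06 TPM at DAF45. Response to chitin, with 6 tested, and response to carbohydrate stimulus, with 8, had 0 calls in edgeR and DESeq2, with 0 and 1 transcripts at an unadjusted p of 0.05 or less in edgeR. VIT_13s0067g01070, of both lists, had 475, 580 and 552 TPM at DAF75, against 257, 496 and 193 TPM at DAF45. VIT_03s0091g00690, of the same lists, had 521, 394 and 543 TPM at DAF75, against 272, 627 and 111 TPM at DAF45. VIT_10s0003g03810, the most abundant wounding transcript, had 814, 881 and 906 TPM at DAF75, against 1141, 1647 and 753 TPM at DAF45. In all 3, replicate 2 was the highest and replicate 3 the lowest at DAF45, whereas the DAF75 libraries lay closer together. Without replicate 2 at DAF45 both chitin-list transcripts were called higher, at log2 fold changes of 1.10 and 1.18. The summed level of the chitin list was 1185 to 1406 TPM at DAF75 and 464 to 1641 TPM at DAF45. VIT_09s0002g00890, also of the wounding list, was tight at both stages, with 280, 240 and 261 TPM at DAF75, against 388, 419 and 373 TPM at DAF45. Its log2 fold change of −0.79 (adjusted p = 0.00173 in edgeR) was under the fold threshold.

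Of membrane and channel groups, 3 of 19 transcripts of proteins anchored to the plasma membrane fell and 1 rose (median −0.18). Over all transcripts tested, 6.88% fell and 5.35% rose. The most abundant, VIT_17s0000g05070, overlapped at 865, 484 and 649 TPM, against 617, 527 and 641 TPM at DAF45. VIT_08s0007g02360 had 198, 182 and 214 TPM at DAF75, against 384, 713 and 180 TPM at DAF45 and did not pass in edgeR (log2 fold change −1.32, adjusted p = 0.0591), although DESeq2 called it. VIT_19s0014g02460 had 280, 211 and 267 TPM at DAF75, against 450, 400 and 413 TPM at DAF45, a change of −0.93, just under the fold threshold. Mechanically gated ion channels had 0 of 4 called and detection of abiotic stimulus 0 of 5, with medians of −0.04 and 0.10, 0 calls in DESeq2, and 1 and 2 transcripts at an unadjusted p of 0.05 or less in edgeR. Their most abundant member, VIT_15s0107g00270, had 34.1, 26.4 and 31.7 TPM at DAF75, against 16.1, 20.9 and 12.9 TPM at DAF45 (log2 fold change 0.68, adjusted p = 0.0392 in edgeR). Potassium leak channels, which let potassium pass at rest, had 2 of 4 higher and 0 lower, beside the same shares. This short list was added later, and its choice as lower in heterografts favours a rise. VIT_00s0194g00250 had 26.6, 24.5 and 26.6 TPM at DAF75, against 7.89, 7.86 and 8.38 TPM at DAF45 (1.5 ± 0.08, adjusted p = 9.32e-05 in edgeR). VIT_00s0194g00210, from the same scaffold, had 7.30, 6.40 and 7.09 TPM at DAF75, against 0.714, 2.28 and 1.83 TPM at DAF45. The other 2 members moved apart. VIT_19s0015g00320 had a log2 fold change of 0.89 and VIT_19s0015g00300 one of −0.72, both under the threshold, and the first was called without replicate 2 at DAF45 or replicate 3 at DAF75.

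Oligopeptide transport had 1 of 7 higher and 1 lower (median 0.04). The member that fell, VIT_02s0154g00260, had 17.3, 12 and 17.9 TPM at DAF75, against 72.7, 51.5 and 53.3 TPM at DAF45 (−2.10 ± 0.19, adjusted p = 0.000418 in edgeR), and at DAF105 it was at 0 to 0.0629 TPM. The most abundant member, VIT_18s0041g00650, was close between the stages, with 88.3, 81.4 and 86.8 TPM at DAF75, against 91.4, 104 and 88.9 TPM at DAF45. VIT_01s0150g00250 had 97.8, 78.1 and 97.9 TPM at DAF75, against 42.5, 57.2 and 40.1 TPM at DAF45 and was not called, with a change of 0.76. Ferric iron binding had 2 of 4 lower and a median of −0.94, although its summed level was higher, at 346 to 462 TPM at DAF75 against 179 to 232 TPM at DAF45. The sum was carried by VIT_13s0067g01840, with 334, 447 and 348 TPM at DAF75, against 161, 174 and 202 TPM at DAF45 and a log2 fold change of 0.88 (adjusted p = 0.00294 in edgeR). The 2 that fell were scarce. VIT_01s0011g06290 had 2.93, 4.59 and 6.10 TPM at DAF75, against 6.64, 15.4 and 11.3 TPM at DAF45, and VIT_08s0058g00430 had 3.28 to 4.42 TPM, against 4.73 to 8.26 TPM at DAF45. The first lost its call without replicate 1 or replicate 2 at DAF75 (adjusted p of 0.0568 and 0.0617 in edgeR), and the second without replicate 2 at DAF45 or without replicate 1 or 3 at DAF75 (log2 fold changes of −0.95, −1.01 and −1.05).

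Phosphoenolpyruvate carboxykinase, an enzyme of the path from organic acids towards sugar, had 0 of 4 called in edgeR and DESeq2, all with negative log2 fold changes between −0.55 and −0.33, and 4 with an unadjusted p of 0.05 or less in edgeR. VIT_00s2840g00010, the most abundant, had 436, 561 and 466 TPM at DAF75, against 544, 475 and 641 TPM at DAF45, and 2068 to 2724 TPM at DAF105. Its identifier and those of the other 2 most abundant members lie on scaffolds not placed on a chromosome, and whether these copies share reads was not tested. Abaxial cell fate specification, the identity of the lower side of lateral organs, had 0 of 4 called in either tool, with 2 at an unadjusted p of 0.05 or less in edgeR. Its most abundant member VIT_08s0032g01110 had 117, 103 and 113 TPM at DAF75, against 72.6, 69.3 and 74.3 TPM at DAF45 (log2 fold change 0.44, adjusted p = 0.00345 in edgeR).

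For 5 large terms only 22 identifiers each were given, and their counts cover those alone. Transmembrane receptor serine/threonine kinases sense signals outside the cell. Of 22 tested transcripts of this term, 6 rose and 0 fell (median 0.33), beside 5.35% and 6.88% of all transcripts. The list was added later, and its choice as lower in heterografts at DAF75 favours a rise here. VIT_08s0007g02290 had 26.1, 20.2 and 21.4 TPM at DAF75, against 5.30, 4.92 and 7.41 TPM at DAF45 (1.75 ± 0.15, adjusted p = 0.000332 in edgeR). VIT_02s0087g00720 had 28.1, 30.6 and 25.3 TPM at DAF75, against 10.6, 6.21 and 8.70 TPM at DAF45, and VIT_18s0001g14690 had 1.64 to 1.82 TPM, against 0.128 to 0.313 TPM at DAF45. The stages of all 3 were apart, and each call held in all 6 leave-one-out fits. Of 22 ubiquitin ligases 1 rose and 2 fell, with a median of −0.48.

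Calcium-binding transcripts included some of the most abundant in the skin. Of 21 tested, 1 rose and 2 fell (median −0.31), and 2 rose in DESeq2. VIT_17s0000g02480 had 2065, 2395 and 2610 TPM at DAF75, against 5422, 5807 and 5254 TPM at DAF45, a log2 fold change of −1.41 ± 0.13 (adjusted p = 0.000404 in edgeR). VIT_17s0000g01630 had 169, 106 and 161 TPM at DAF75, against 494, 842 and 319 TPM at DAF45 (−2.13 ± 0.39). VIT_05s0020g01170 was higher still and overlapped, at 10157, 12135 and 10204 TPM at DAF75, against 10247, 10168 and 10137 TPM at DAF45. Of 19 glycosyl transferases, which add sugars to flavonoids, hormones and wall polymers, 3 rose and 2 fell (median 0.78), with 5 higher and 2 lower in DESeq2, 5 and 1 with the replicate number as a block, and 3 to 5 higher and 1 to 2 lower with 1 library left out. VIT_10s0116g00530 had 70.8, 58.4 and 59.3 TPM at DAF75, against 15.6, 13.5 and 14.9 TPM at DAF45 (1.91 ± 0.10, adjusted p = 7.81e-05 in edgeR), and VIT_12s0059g02520 had 2.66 to 3.17 TPM, against 0.586 to 0.917 TPM at DAF45. Neither overlapped. Cell wall organization had 1 of 17 higher and 1 lower (median 0.37). Its summed level, mainly CHI, EXPA11 and VIT_05s0094g00340, was 1177 to 2447 TPM at DAF75, 681 to 2060 TPM at DAF45 and 24665 to 39334 TPM at DAF105.

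**Figure D3:**
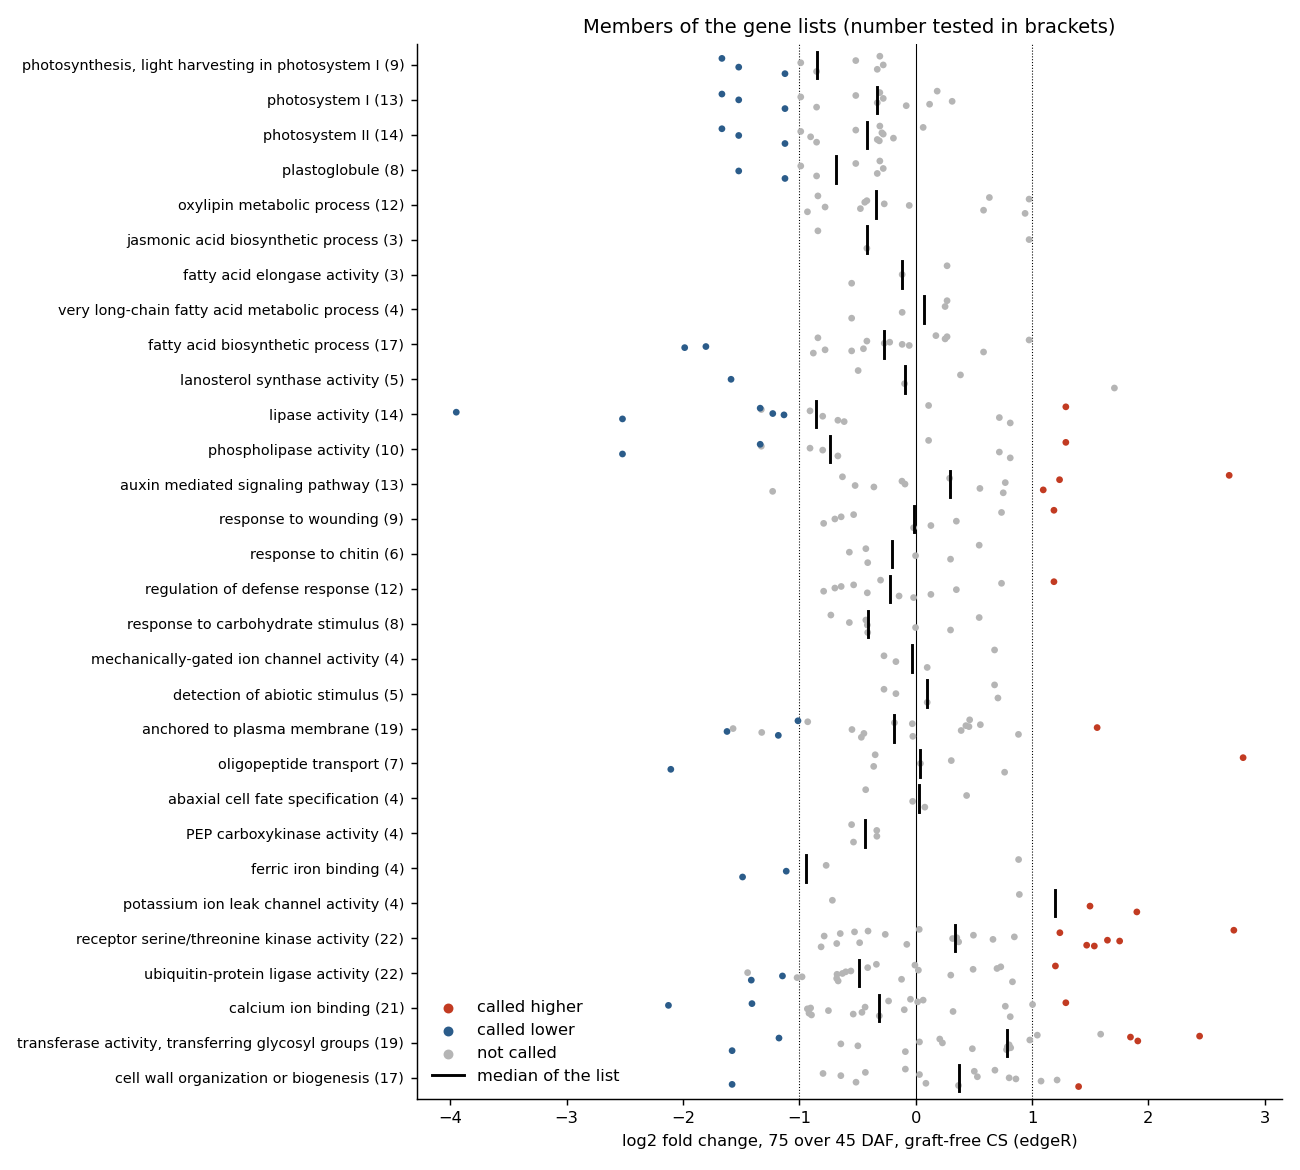
Log2 fold change of DAF75 over DAF45 in graft-free CS (horizontal axis) for each tested member of the 30 gene lists (rows, number tested in brackets), with colour for the call and a black bar for the list median. All 9 light-harvesting transcripts lie left of 0, 1 lipase lies at −3.95, and 6 of 22 receptor kinases are called higher. Over all transcripts tested, 5.35% were called higher and 6.88% lower.

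The called transcripts were also placed along the identifiers, which run in order along each scaffold. Of 1007 transcripts called lower whose neighbouring identifier was tested, 21.3% had a neighbour called lower, against 9.7% of all 14925 transcripts with a tested neighbour. For transcripts called higher the shares were 15.8% of 792, against 7.8%. Runs of 3 or more neighbours were 15 among the transcripts called lower, the longest of 5, and 2 among those called higher, the longest of 4. By chromosome, the share called higher ran between 4.02% on chromosome 9 and 7.84% on chromosome 16, and the share called lower between 4.71% on chromosome 7 and 8.51% on chromosome 12. These shares were not tested, and neighbouring copies may share reads.

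The same interval was measured in the other graft types with separate libraries. Between DAF75 and DAF45, CS/CS had 805 transcripts higher (4.38% of those tested) and 1269 lower (6.9%). It shared 166 calls with the 944 higher in CS, 17.6% of the CS list and 20.6% of its own, and 236 with the 1214 lower in CS, 19.4% and 18.6%. Heterografts had more calls and shared more of the CS calls. On 101-14, where 2331 were higher and 3241 lower (13% and 18.1%, 31.1% in all), 448 of the calls higher (47.5% of the CS list, 19.2% of its own) and 781 of the calls lower (64.3% and 24.1%) were the same as in CS. On 110R, with 2497 higher and 3169 lower (13.9% and 17.6%, 31.5% in all), 373 (39.5% and 14.9%) and 525 (43.2% and 16.6%) were shared. On SO4, with 2299 higher and 2990 lower (12.8% and 16.7%, 29.5% in all), the shared calls were 459 (48.6% and 20%) and 775 (63.8% and 25.9%). Calls in the opposite direction numbered 49 to 126 of the CS transcripts called higher and 28 to 87 of those called lower, most on 110R in both. The transcripts called in the same direction in all 4 other graft types were 56 higher and 109 lower. A further 237 higher and 310 lower were called the same way on all 3 rootstocks without a like call in the self-graft, and 188 higher and 193 lower were called in no other graft type.

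The size-ranked transcripts are given in each graft type from its own fit. VIT_05s0124g00660 had a log2 fold change of 5.19 in CS and 6.41 in CS/CS, against 1.14, −2.81 and 1.27 on 101-14, 110R and SO4. VIT_05s0094g01200 had 5.06 in CS, was not tested in CS/CS, and had 2.68, 0.70 and 1.91 on 101-14, 110R and SO4. VIT_01s0026g01380 had −6.98 in CS and −0.52 in CS/CS, against −9.90, −5.43 and −12.45 on the same rootstocks, and VIT_02s0025g00280 had −6.29 in CS and −5.01 in CS/CS, against −1.75, −4.86 and −6.16. The transcripts with large falls in CS thus had negative changes in all 4 other graft types, whereas VIT_05s0124g00660 had a negative one on 110R. They were ranked by their change in CS, so these values are a description.

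The difference between the change in CS and that in another graft type was then tested directly. Against CS/CS, 2214 of 18964 transcripts differed (11.7%), with the change more positive in CS for 1223 (6.45%) and more negative for 991 (5.23%). Against CS/101-14, 3825 of 18649 differed (20.5%), 2525 more positive (13.5%) and 1300 more negative (6.97%) in CS. The count against CS/110R was 4912 of 18640 (26.4%), 2646 more positive (14.2%) and 2266 more negative (12.2%). That against CS/SO4 was 3395 of 18578 (18.3%), 2218 more positive (11.9%) and 1177 more negative (6.34%). Of the 18 named genes tested, 3 differed between CS and CS/CS, 12 between CS and CS/101-14, 14 between CS and CS/110R and 11 between CS and CS/SO4. CHI, with a log2 fold change of 0.86 in CS, had 0.78 in CS/CS and 3.60, 6.59 and 4.20 on 101-14, 110R and SO4. XTH7, at −0.25 in CS, had 1.52 in CS/CS and −3.53, −2.68 and −3.79 on the 3 rootstocks. In CS and CS/CS the ripening-related gene had 0.77 and 0.24, against 3.64 to 9.58 in the heterografts.

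**Figure D4:**
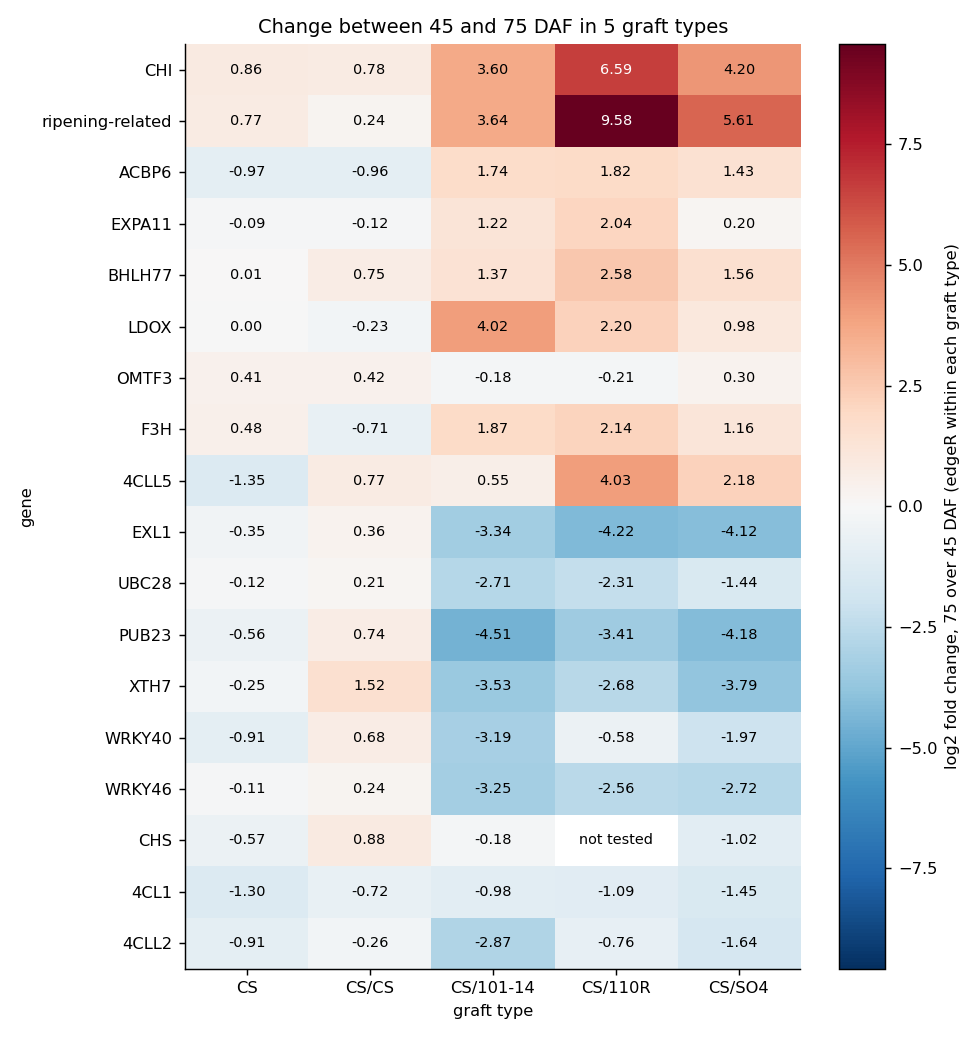
Log2 fold change of DAF75 over DAF45 (colour and printed value) for the 18 named genes tested in CS (rows) in CS, in the self-graft CS/CS and in the 3 heterografts (columns), each from the edgeR fit of that graft type. The CS column lies between −1.35 and 0.86, whereas the heterograft columns reach from −4.51 for PUB23 to 9.58 for the ripening-related gene.

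The position of each library between the stages was measured along the line from the mean of the heterografts at DAF45 (position 0) to their mean at DAF105 (position 1), over 20158 transcripts in log2(CPM + 1). No CS library entered this line. The CS libraries stood at 0.0704, 0.144 and 0.0988 at DAF75, against 0.00505, −0.0207 and 0.0416 at DAF45. The means were 0.104 ± 0.0369 at DAF75 and 0.00863 ± 0.0313 at DAF45 (SD, n = 3 each), and the libraries did not overlap. The difference of 0.0957 had an exact two-sided permutation p of 0.1, the smallest that 3 libraries against 3 can give. CS at DAF105 stood at 0.940 ± 0.0193. CS at DAF75 was thus closer to its own DAF45 libraries than to the heterografts at DAF75, which stood at 0.654 to 0.786. CS/CS at DAF75 stood at −0.0656 to −0.0491, below every CS library of that stage. At DAF45 it was already below every CS library, at −0.114 to −0.0754. Along the line from DAF45 to DAF105 of CS/CS, an axis added after the values were seen, the CS difference was 0.0558, with an exact permutation p of 0.2. There the CS libraries stood at 0.337 to 0.415 at DAF45 and at 0.383 to 0.474 at DAF75, with the stages overlapping. On that line, which its own libraries define, CS/CS stood at −0.0301 to 0.0429 at DAF45 and at 0.219 to 0.241 at DAF75. Both ranges of CS/CS lay below every CS library of either stage.

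**Figure D5:**
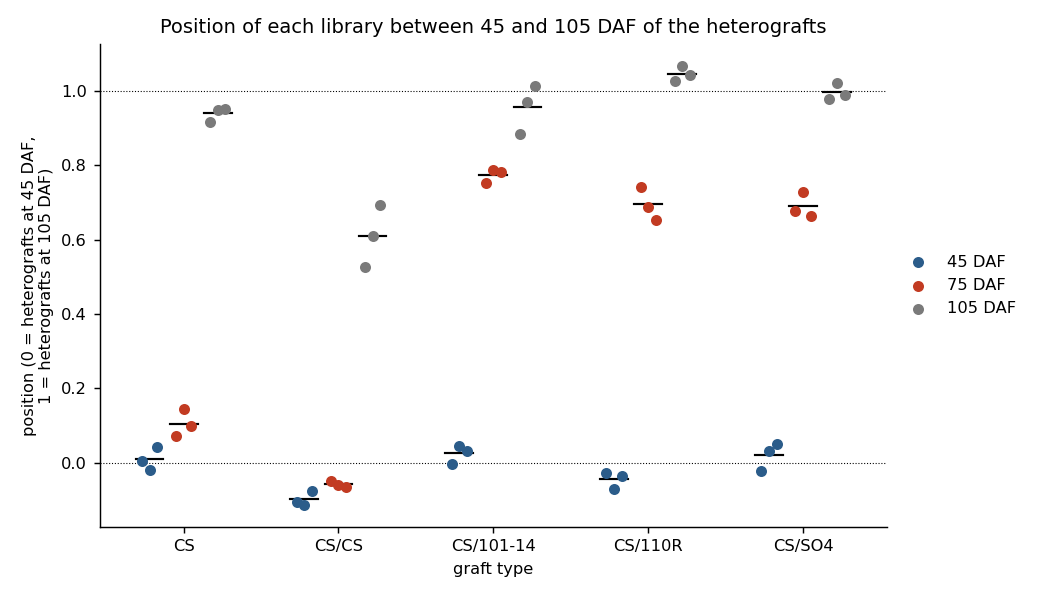
Position of each library (vertical axis, 0 for the heterograft mean at DAF45 and 1 for that at DAF105, no unit) for the 5 graft types (horizontal axis) at DAF45, DAF75 and DAF105, with 3 points per stage and a bar for the mean. The DAF75 libraries of CS lie at 0.0704 to 0.144 and those of the heterografts at 0.654 to 0.786.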

How the data were processed

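Berry skin RNA was sequenced by the authors in 45 libraries, of which the 3 of CS at DAF75 and the 3 of CS at DAF45 form the main comparison. Groups were taken from the sample titles, and 0 columns were left unassigned. Reads were trimmed by the authors (fastp), mapped to the V. vinifera 12X assembly (HISAT2), assembled (StringTie) and counted (HTSeq), and versions are not given in the sources used here. The deposited values are estimated counts without normalization (87.6% of those above 0 are whole within 1e-09) and TPM, scaled by the authors. HTSeq is the counting tool that the study names, and whether it made these partly fractional counts is not stated. Counts were rounded to whole numbers.

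Tests used edgeR 4.0.16 in R 4.3.3 (quasi-likelihood, TMM) on transcripts reaching 10 counts in 3 or more of the libraries in the fit, with Benjamini-Hochberg adjustment over all transcripts tested. Differences in change between graft types were tested in 12 libraries each. Alternatives were DESeq2 1.42.0, RLE size factors, a looser filter (any transcript with 1 count), a stricter one (mean of 1 TPM or more), all 45 libraries in one fit, a block for replicate number, p-values without adjustment, and each library left out. SE is the log2 fold change over the root of the F statistic. In simulated data for this comparison (17636 transcripts, 200 changed by 2 on the log2 scale with a mean count of at least 50), edgeR recovered 198 with 10 false calls and DESeq2 198 with 24. For the test of a difference against CS/CS (18964 transcripts), edgeR recovered 171 of 200 with 4 false calls and DESeq2 185 with 27. Recovery of smaller changes or at lower mean counts was not simulated, although the median called changes in CS were 1.39 and −1.48. The depth of 17594637 to 19418092 counts limits tests of scarce transcripts, and intervals cover counting error only.

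The genes named are the 19 of the RT-qPCR list, the most abundant and the called members of 30 GO lists (24 listed at the start, and 6 added later, namely potassium leak channels and the 5 partial lists), and the 2 largest changes per direction with at least 10 TPM. Not every such member is printed. Members and lists were chosen with earlier results of these data known. The position along the ripening line was added after the data were seen. Some members outside the top 3 by level of a list were picked after their values were seen. The primers of the RT-qPCR list could not be matched to transcripts here. Python 3.11.15, scipy 1.17.1 and matplotlib 3.10.9 were used for tables, permutation and figures.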

Additional observations from a re-analysis of the deposited data

Results flagged for a closer look

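The 18 tested genes of the RT-qPCR list were compared between CS and each other graft type by a direct test of the difference in change (DAF75 against DAF45 in CS, minus the same in the other), with edgeR's quasi-likelihood test and adjustment over all transcripts, and 40 differences passed at adjusted p-values between 1.93e-06 and 0.0472. Over all transcripts tested, 11.7% differed against CS/CS, 20.5% against CS/101-14, 26.4% against CS/110R and 18.3% against CS/SO4. Of the 18 genes, the change was more positive in CS for 1 and more negative for 2 against CS/CS. These counts were 7 and 5 against CS/101-14, 5 and 9 against CS/110R, and 6 and 5 against CS/SO4. A negative value means that the change was lower in CS, on the log2 scale. The study chose these genes with the same libraries, so they are no independent sample of transcripts.

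Genes whose change was lower in CS than in heterografts included the following. The difference for CHI was −2.75 against CS/101-14, −5.77 against CS/110R and −3.32 against CS/SO4. The ripening-related gene differed by −8.86 from CS/110R and by −4.83 from CS/SO4. ACBP6 differed by −2.71, −2.83 and −2.39 from CS/101-14, CS/110R and CS/SO4, and BHLH77 by −1.37, −2.61 and −1.53 from the same 3. EXPA11 differed by −2.18 and CHS by −2.50 from CS/110R alone. LDOX differed by −4.04 from CS/101-14 and −2.25 from CS/110R, and 4CLL5 by −5.42 from CS/110R and −3.52 from CS/SO4. F3H differed by −1.40 from CS/101-14 and −1.70 from CS/110R, and by 1.2 in the other direction from CS/CS.

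Genes whose change was higher in CS than in heterografts were EXL1, with differences of 2.98, 3.84 and 3.78 against CS/101-14, CS/110R and CS/SO4, UBC28 with 2.58, 2.15 and 1.33, PUB23 with 3.94, 2.81 and 3.63, and WRKY46 with 3.13, 2.41 and 2.62. XTH7 differed by 3.26, 2.39 and 3.55 from the same 3, and by −1.75 from CS/CS. WRKY40 differed by 2.27 from CS/101-14 and 1.07 from CS/SO4, and by −1.57 from CS/CS. 4CLL2 differed by 1.95 from CS/101-14.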

How the results depend on the processing

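The counts over all transcripts (calls in CS, differences between graft types and calls shared with them) stayed within 1.5 times of those reported under every alternative run, but counts within short gene lists did not. In CS they were 963 higher and 1231 lower with DESeq2, 802 and 1115 with a mean of at least 1 TPM, 1102 and 1220 in one fit of 45 libraries, and 887 and 1145 with the replicate number as a block. Leaving out 1 library gave 1796 (without replicate 1 at DAF45) to 2224 (without replicate 3 at DAF45) calls in CS in place of 2158. It gave 1683 to 2673 differences against CS/CS, 3415 to 4272 against CS/101-14, 4565 to 4993 against CS/110R and 2984 to 3632 against CS/SO4. Of the 944 and 1214 transcripts called in CS, 526 and 783 were called in all 6 such fits. Replicate numbers did not pair the libraries. Same-numbered libraries deviated together at 0.02, −0.14 and 0.14, and not every library correlated best with its own number. For the 78 genes named, 952 of 1003 results under alternatives kept their direction and side of the threshold, 12 lost the call, 17 gained it and 22 changed sign.

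The changes of sign concern genes that were not called, and the cause was not tested. LDOX, at a log2 fold change of −0.00 as reported, was 0.004 with DESeq2, 0.0024 with RLE, 0.0079 with the TPM filter, 0.0163 in one fit of 45 libraries and 0.1634 with the block. VIT_09s0002g01080 was 0.3257 with the block. With 1 library left out, the log2 fold change ran from −0.397 to 0.7184 for LDOX, −0.4215 to 0.9733 for VIT_09s0002g01080, −0.2553 to 0.4162 for BHLH77, −0.3119 to 0.3956 for WRKY46, −0.3806 to 0.3642 for EXPA11, −0.5425 to 0.0039 for XTH7, −0.041 to 0.6494 for VIT_18s0001g11900, −0.1245 to 1.1772 for VIT_03s0091g00690, −0.8789 to 0.1299 for VIT_07s0141g00270 and −0.2418 to 0.1614 for VIT_17s0000g05070. Of the calls, 4CL1 and VIT_00s0181g00180 were also lost in one fit of 45 libraries. ACBP6, 4CLL2 and WRKY40 were called without replicate 3 at DAF45, and ACBP6 and 4CLL2 also without replicate 1 at DAF45. With 1 library left out, the wounding and defence lists had 1 to 3 higher, the chitin and carbohydrate lists 0 to 2 higher, the oxylipin list 0 to 1 higher and 0 to 2 lower, the cell wall list 0 to 4 higher, the calcium list 1 to 4 higher and the ferric iron list 0 to 2 lower. The position difference was 0.0769 with log2(TPM + 1), against 0.0957 as reported, and 0.0558 along the line of CS/CS. Depth limits transcripts with few counts, such as PAL1.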
